A study of Rattus norvegicus with 47 samples.

Results

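The NMDA receptor subunits described here are 6 genes among the 15319 in each count table (0.0392%). They were found by matching the tables' gene identifiers to rat symbols, and they are Grin1 (gene 24408), Grin2a (24409), Grin2b (24410), Grin2c (24411), Grin2d (24412) and Grin3a (191573). All 6 were matched and all 6 passed the filter on low counts in both regions. RNA was sequenced from tissue punches of striatum and cerebellum of Sprague-Dawley rats that breathed PCB52, a polychlorinated biphenyl with 4 chlorine atoms, in a nose-only apparatus for 4 h a day over 28 days, or were sham-exposed. Rats entered the exposure groups aged 39 days (males) or 42 days (females), and all animals were trained to the apparatus beforehand. Striatum gave 6 libraries of PCB52 males, 6 of PCB52 females, 4 of sham males and 6 of sham females. Cerebellum gave 5 of PCB52 males, 6 of PCB52 females, 5 of sham males and 6 of sham females. The study asked how the inhaled compound changes gene expression in adolescent brain.

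NMDA receptors are glutamate-gated, calcium-permeable channels that open when glutamate and a co-agonist, glycine or D-serine, bind and depolarisation relieves a block by magnesium. Each receptor needs the Grin1 product, which binds the co-agonist, together with glutamate-binding products of Grin2a to Grin2d or with the glycine-binding product of Grin3a. In rodent cerebellum, granule cells exchange Grin2b for Grin2a and Grin2c as they mature, while Grin2b persists in forebrain.

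Total counts ran from 5684508 to 8914523 in striatal and from 6524400 to 15865054 in cerebellar libraries. Levels are CPM, counts scaled to library sizes adjusted by TMM (the trimmed mean of M values), and are compared between samples, not between genes, since transcript lengths were not used here. Summed markers of striatal projection neurons ran from 5297 to 13324 CPM in striatum and from 388 to 671 CPM in cerebellum, while those of cerebellar granule cells ran from 87.3 to 444 CPM in striatum and from 4699 to 6048 CPM in cerebellum, so the libraries bore the markers of their labelled region. Some libraries stood apart. Transcripts of both sexes occurred in striatum sham male 3 and in cerebellum sham females 8 and 10 and sham males 9 and 11. Markers of another tissue were high in 5 striatal libraries (PCB52 females 14, 20 and 24, PCB52 male 19 and sham female 12) and in 4 cerebellar ones (PCB52 females 16, 18 and 24 and sham male 1). Striatum PCB52 female 22 held 67.9 CPM of Gabra6, a granule cell transcript, against at most 1.96 CPM in the other striatal libraries, and the highest striatal sum of granule cell markers (444 CPM). In tissue punches, fewer cells of a type and less RNA per cell cannot be told apart.

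The 2 regions differed in 5 of the 6 subunit transcripts in sham animals and in all 6 in PCB52 animals. Grin2b was far higher in striatum, Grin1, Grin2d and Grin3a were moderately higher there, and Grin2c was lower. Grin2a passed the test in PCB52 and not in sham animals, and the test of that difference did not pass (0.50 ± 0.49 on the log2 scale, SE, edgeR adjusted p = 0.504). In sham animals edgeR's quasi-likelihood test, with Benjamini-Hochberg adjustment over all genes and a threshold of 0.05, called 4 members higher and 1 lower in striatum, beside 69.8% of all 12446 genes called (34.3% higher and 35.5% lower). In PCB52 animals it called 5 members higher and 1 lower, beside 76.9% of all genes (36.5% higher and 40.4% lower). Calls were thus common among all genes too. The median log2 difference of the members was 1.03 in PCB52 and 0.67 in sham animals, against -0.04 and -0.03 over all genes.

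**Figure D1:**
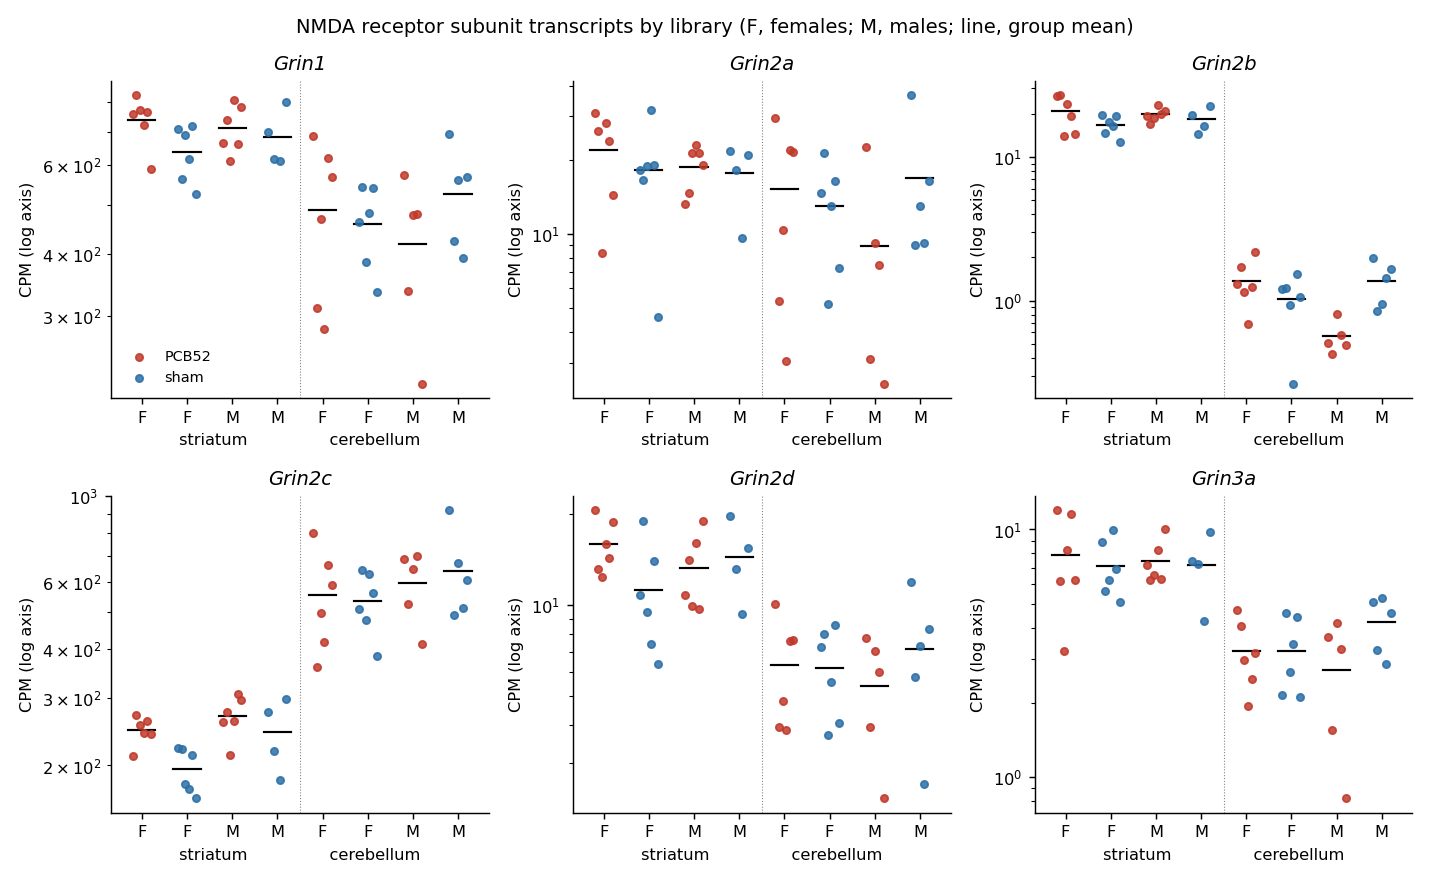
CPM of each subunit transcript on a log axis, 1 point per library, with PCB52 left of sham within each sex and striatum left of cerebellum; lines are group means. Grin2b is separated by region in every library, with striatal values of at least 12.8 CPM and cerebellar values of at most 2.17 CPM, and Grin2a spreads most, from 2.46 to 36.5 CPM in cerebellum.

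Grin2b encodes a glutamate-binding subunit that prolongs the receptor current and carries a tail bound by calcium/calmodulin-dependent kinase. In PCB52 animals it stood at 14.05, 19.6 and 26.8 CPM (lowest, median, highest of 12 libraries) in striatum and at 0.424, 0.812 and 2.17 CPM in cerebellum (11 libraries). The sham values were 12.8, 16.97 and 22.7 CPM in striatum (10 libraries) and 0.264, 1.21 and 1.99 CPM in cerebellum (11 libraries). No striatal library overlapped any cerebellar one, which held for 11.6% of all genes in this direction. The log2 difference was 4.50 ± 0.18 in PCB52 animals (SE, edgeR adjusted p = 2.51e-24) and 3.86 ± 0.17 in sham animals (edgeR adjusted p = 2.73e-22). Cerebellar libraries held between 2 and 19 Grin2b reads each, so counting error is large there. Among the group means, the 4 striatal ones lay between 16.7 ± 2.68 CPM in sham females and 20.8 ± 5.75 CPM in PCB52 females (SD, n = 6 each), and the 4 cerebellar ones between 0.563 ± 0.150 CPM in PCB52 males (SD, n = 5) and 1.38 ± 0.509 CPM in PCB52 females (SD, n = 6).

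Grin2c encodes a glutamate-binding subunit with weak magnesium block that is typical of mature cerebellar granule cells in rodents and is also made by forebrain astrocytes. It was the only member lower in striatum. Its levels were 211, 260 and 307 CPM (lowest, median, highest) in striatum of PCB52 animals and 361, 588 and 804 CPM in their cerebellum. Sham animals had 164, 216 and 297 CPM in striatum and 385, 560 and 919 CPM in cerebellum. Here too the regions did not overlap in any library, a pattern that 9.62% of all genes shared in this direction. The log2 difference was -1.16 ± 0.12 in PCB52 animals (SE, edgeR adjusted p = 2.68e-11) and -1.43 ± 0.13 in sham animals (edgeR adjusted p = 1.15e-12).

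Grin1, which encodes the subunit that every NMDA receptor contains, was higher in striatum. In PCB52 animals it had 589, 749 and 826 CPM in striatum against 220, 477 and 685 CPM in cerebellum. In sham animals it had 526.1, 654 and 802 CPM in striatum against 336, 483 and 691 CPM in cerebellum. The regions' ranges overlapped in both treatments, and the lowest libraries were all cerebellar. The log2 difference was 0.67 ± 0.14 in PCB52 animals (SE, edgeR adjusted p = 2.53e-05) and 0.42 ± 0.14 in sham animals (edgeR adjusted p = 0.00885).

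The promoters of Grin1 and Grin2c are printed because these members differed between regions in opposite directions and yet varied together within cerebellum, as described further on. Each line gives the 250 bases before the gene's start from RefSeq, assembly GRCr8, read 5′ to 3′ on the gene's strand; both genes lie on the minus strand, at chr3:28528755-28529004 and chr10:101005139-101005388. Capitals mark matches to CANNTG, the E-box letters bound by many basic helix-loop-helix factors; its complement is the same motif.
Grin1 promoter: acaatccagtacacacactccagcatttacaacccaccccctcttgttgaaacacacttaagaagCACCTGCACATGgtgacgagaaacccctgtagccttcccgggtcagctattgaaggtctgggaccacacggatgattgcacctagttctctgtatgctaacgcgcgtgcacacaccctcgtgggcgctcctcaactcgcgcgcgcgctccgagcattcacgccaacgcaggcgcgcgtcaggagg
Grin2c promoter: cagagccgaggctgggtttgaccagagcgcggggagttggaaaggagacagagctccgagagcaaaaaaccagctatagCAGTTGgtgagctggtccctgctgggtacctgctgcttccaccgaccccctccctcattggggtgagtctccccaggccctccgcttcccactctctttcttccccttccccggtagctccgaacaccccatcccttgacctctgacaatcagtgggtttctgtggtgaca
The Grin1 window held 2 matches that did not overlap and the Grin2c window 1, and 65.5% of 33465 promoter windows of this length held at least 1. Neither window held GGGCGG on either strand, the letters of a GC box, which 30.5% of windows held. GC content was 57.6% for Grin1 and 59.6% for Grin2c, against a median of 51.2%. Promoter entries were matched for 4 of the 6 members. These matches describe letters and not binding sites.

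Grin2d, which encodes a subunit with slow deactivation found mainly in interneurons and deep brain nuclei, was also higher in striatum. PCB52 animals had 9.68, 14.2 and 20.6 CPM in striatum and 2.30, 6.00 and 10.04 CPM in cerebellum, where only the highest cerebellar library reached into the striatal range. Sham animals had 6.38, 12.0 and 19.7 CPM in striatum and 2.57, 7.24 and 11.9 CPM in cerebellum, and these ranges overlapped more. The log2 difference was 1.29 ± 0.22 in PCB52 animals (SE, edgeR adjusted p = 1.65e-06) and 0.92 ± 0.23 in sham animals (edgeR adjusted p = 0.000479). 

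Grin3a encodes a glycine-binding subunit that lowers calcium permeability. It ran from 3.24 over a median of 6.89 to 12.0 CPM in striatum of PCB52 animals and from 0.820 over 3.18 to 4.74 CPM in their cerebellum. In sham animals the corresponding values were 4.28, 7.07 and 9.93 CPM in striatum and 2.10, 3.43 and 5.27 CPM in cerebellum. Most striatal libraries stood above most cerebellar ones. The log2 difference was 1.34 ± 0.21 in PCB52 animals (SE, edgeR adjusted p = 4.53e-07) and 0.95 ± 0.22 in sham animals (edgeR adjusted p = 0.000226).

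Grin2a encodes the fast glutamate-binding subunit of mature forebrain and granule cell synapses. In PCB52 animals it had 8.33, 21.3 and 31.0 CPM in striatum and 2.46, 9.20 and 29.5 CPM in cerebellum. In sham animals it had 4.58, 18.5 and 31.7 CPM in striatum and 5.19, 12.97 and 36.5 CPM in cerebellum. The regions overlapped over most of their range, and the highest single library was a cerebellar one, sham male 1. The log2 difference was 0.77 ± 0.34 in PCB52 animals (SE, edgeR adjusted p = 0.0357) and 0.27 ± 0.35 in sham animals (edgeR adjusted p = 0.499). The call in PCB52 animals was lost without the libraries high in markers of another tissue (0.54, edgeR adjusted p = 0.202), and also with striatum PCB52 female 22 left out besides (0.45, edgeR adjusted p = 0.323). It was also lost on leaving out any of 9 single libraries (edgeR adjusted p between 0.0508 and 0.0746): striatum PCB52 females 14, 16 and 20 and male 19, and cerebellum PCB52 females 16, 18 and 20 and males 15 and 23.

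**Figure D2:**
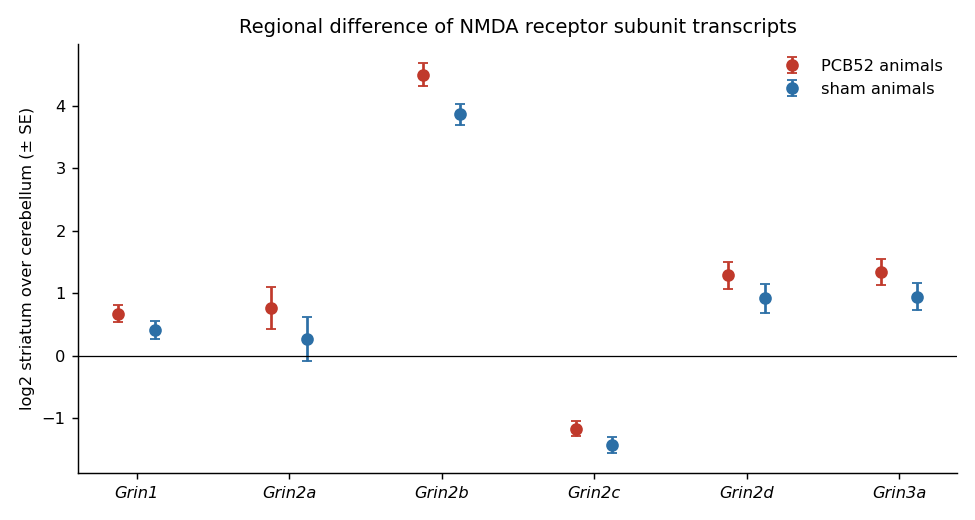
Log2 difference of each subunit transcript between striatum and cerebellum with its SE, PCB52 animals left of sham animals. Grin2b lies at 4.50 in PCB52 and 3.86 in sham animals, Grin2c lies below 0, and the SE of Grin2a in sham animals crosses 0.

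The balance of Grin2a to Grin2b counts within a library does not depend on how libraries are scaled, and it separated the regions. The log2 ratio had a lowest, median and highest value of -0.75, -0.01 and 0.32 in striatum of PCB52 animals and of 1.62, 3.31 and 5.47 in their cerebellum. In sham animals it was -1.48, 0.05 and 0.95 in striatum and 2.48, 3.42 and 5.62 in cerebellum. Because transcript lengths differ, only changes in the ratio are read and not its size. All 11 PCB52 animals and all 10 sham animals with both regions had the lower ratio in striatum; the PCB52 pairs were not tested. The mean within-animal difference in sham animals was -3.64 (SD 0.647, 10 animals), with an adjusted p of 0.00977 over 5 ratio tests (exact sign-flip permutation test, two-sided, p = 0.00195, the smallest it can give). With 0.5 CPM added to both genes the mean difference was -3.10. Cerebellar libraries held between 2 and 19 Grin2b reads each, so the cerebellar ratios are imprecise. The ratio also varied among libraries of a region, as given further on.

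**Figure D3:**
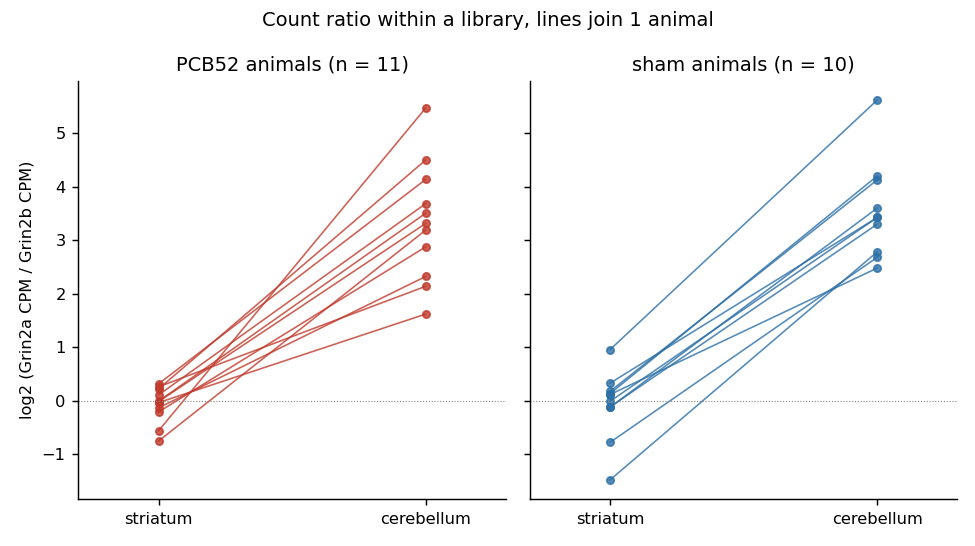
Log2 ratio of Grin2a to Grin2b CPM within each library, PCB52 animals in the left panel and sham animals in the right, with lines joining striatum and cerebellum of 1 animal. Every line is lower at its striatal end, in 11 of 11 PCB52 and 10 of 10 sham animals.

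Genes whose products bind, scaffold or regulate the receptor also differed between regions in sham animals. Of 72 partner genes listed in 6 roles, 70 were matched and 69 tested; 35 were higher and 20 lower in striatum, with a median log2 difference of 0.26 against -0.03 over all genes and the same 34.3% and 35.5% background. Among scaffolds 7 of 9 were higher and 1 was lower. Actn2, an actin crosslinker that binds the Grin1 tail, differed by 8.52 ± 0.27 on the log2 scale (SE), Akap5, which anchors kinases and calcineurin, by 5.72 ± 0.23, and Dlg4, the main scaffold of the postsynaptic density, by 1.80 ± 0.08. Dlgap1, which links such scaffolds to Shank proteins, was the exception at -1.77 ± 0.17.

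Among 15 kinases and phosphatases 9 were higher and 3 lower in striatum, beside 34.3% of all genes higher and 35.5% lower. Ptpn5, which encodes a striatum-enriched tyrosine phosphatase acting on the Grin2b product, differed by 7.38 ± 0.34, Ptk2b, a calcium-activated tyrosine kinase, by 5.38 ± 0.20, and Camk2a, the kinase that docks on the Grin2b product, by 4.42 ± 0.16. Of 12 auxiliary and surface partners 6 were higher and 4 lower. Neto1, an auxiliary subunit, differed by 6.17 ± 0.18, the receptor genes Grm5 and Drd1 by 6.25 ± 0.29 and 6.31 ± 0.31, and Grin3b, a further glycine-binding NMDA receptor subunit, by 1.26 ± 0.11. Ephb2, a receptor tyrosine kinase that clusters NMDA receptors, was lower at -3.47 ± 0.18, and Reln, a secreted protein of granule cells, at -2.39 ± 0.28.

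Of 10 co-agonist genes 6 were higher and 4 lower in striatum, beside 34.3% of all genes higher and 35.5% lower. Counts by role were not tested against these shares. Dao, the enzyme that destroys D-serine, was lower in striatum at -7.39 ± 0.28 on the log2 scale (SE), and Slc6a5, the glycine transporter of inhibitory terminals, at -3.93 ± 0.27. Kmo, an enzyme of kynurenine metabolism, differed by 2.56 ± 0.50 and Gldc, a glycine-cleaving enzyme, by 1.82 ± 0.14. Of 14 calcium-dependent effectors 5 were higher and 6 lower, from Nrgn, which holds calmodulin in dendrites (8.62 ± 0.64), to Bdnf, a growth factor (-4.08 ± 0.57). Of 9 transport genes 2 were higher and 2 lower, with Lin7b at 2.79 ± 0.15 and its relative Lin7a at -3.53 ± 0.24. All partners named here passed in sham animals (edgeR adjusted p from 0.00117 for Nos1, a nitric oxide synthase at -1.47 ± 0.40, down to 5.58e-28 for Neto1).

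Within a region, the subunit transcripts varied together from library to library. Deviations from the 4 group means were positively related for 15 of 15 member pairs in striatum, with a median Pearson r of 0.377 (0.200 to 0.726), and for 15 of 15 in cerebellum, with a median of 0.742 (0.193 to 0.947), over 22 libraries each. After adjustment over 42 relations, 6 striatal and 10 cerebellar pairs passed by Pearson's r, and 6 and 12 by Spearman's rho. Pairs of other genes were not tested in this way, so these counts are not read as particular to the subunits. Grin1 and Grin2a were closest in cerebellum (r = 0.947, rho = 0.951, both with a permutation p of 1e-05, the smallest that 100000 resamples can give), with r = 0.939 without the 2 libraries farthest from the median. In striatum the same pair had r = 0.426 (adjusted permutation p = 0.0688) and rho = 0.429 (adjusted permutation p = 0.0698), and r was 0.173 without 2 libraries. Grin1 and Grin2c had r = 0.933 and rho = 0.946 in cerebellum (adjusted permutation p = 3.82e-05 and 4.20e-05; r = 0.942 without 2). The 5 cerebellar pairs of Grin2b with other members had r between 0.193 and 0.412, none past the threshold. By rank, its pairs with Grin2a (rho = 0.487, adjusted permutation p = 0.0332) and Grin2d (rho = 0.494, adjusted permutation p = 0.0325) passed.

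Grin2a varied most. Its within-group SD on the log2 scale was 1.06 in cerebellum, larger than in 99.1% of genes, and 0.668 in striatum, larger than in 96.2%, against medians of 0.314 and 0.246 over all genes. Grin1, by contrast, had 0.458 in cerebellum and 0.172 in striatum. In cerebellum, Grin2a ran from 2.46 CPM in PCB52 male 23 and 3.04 CPM in PCB52 female 20 to 29.5 CPM in PCB52 female 14 and 36.5 CPM in sham male 1, all with the same order in Grin1 (220, 284, 685 and 691 CPM).

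This shared variation went with the mean level of 88 cytosolic ribosomal protein transcripts, and all relations were negative. In cerebellum r was -0.989 for Grin1 (rho = -0.981; r = -0.983 without the 2 libraries farthest out), -0.962 for Grin2a (rho = -0.950; r = -0.954) and -0.915 for Grin2c (rho = -0.936; r = -0.918), each with an adjusted permutation p of 3.82e-05 by r and 4.20e-05 by rho. Grin2d had r = -0.893 and Grin3a r = -0.727, and Grin2b had r = -0.325 (adjusted permutation p = 0.174). Striatum gave r = -0.867 for Grin2a (rho = -0.766; r = -0.683 without 2) and -0.805 for Grin2b (rho = -0.811; r = -0.741), and -0.296 for Grin2c (adjusted permutation p = 0.206). In each region 5 of the 6 members passed. The same relation was not computed for all genes, so this count is not read as particular to the members. The points share library scaling and RNA handling, whose part in these relations was not tested. The highest cerebellar ribosomal means (log2 CPM) belonged to PCB52 male 23 (9.14), PCB52 female 20 (8.77), PCB52 male 15 (8.64) and PCB52 female 16 (8.62). The lowest belonged to PCB52 female 14 (7.16). Cerebellar sham libraries ran from 7.20 to 8.13, so the PCB52 libraries reached beyond them at both ends.

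**Figure D4:**
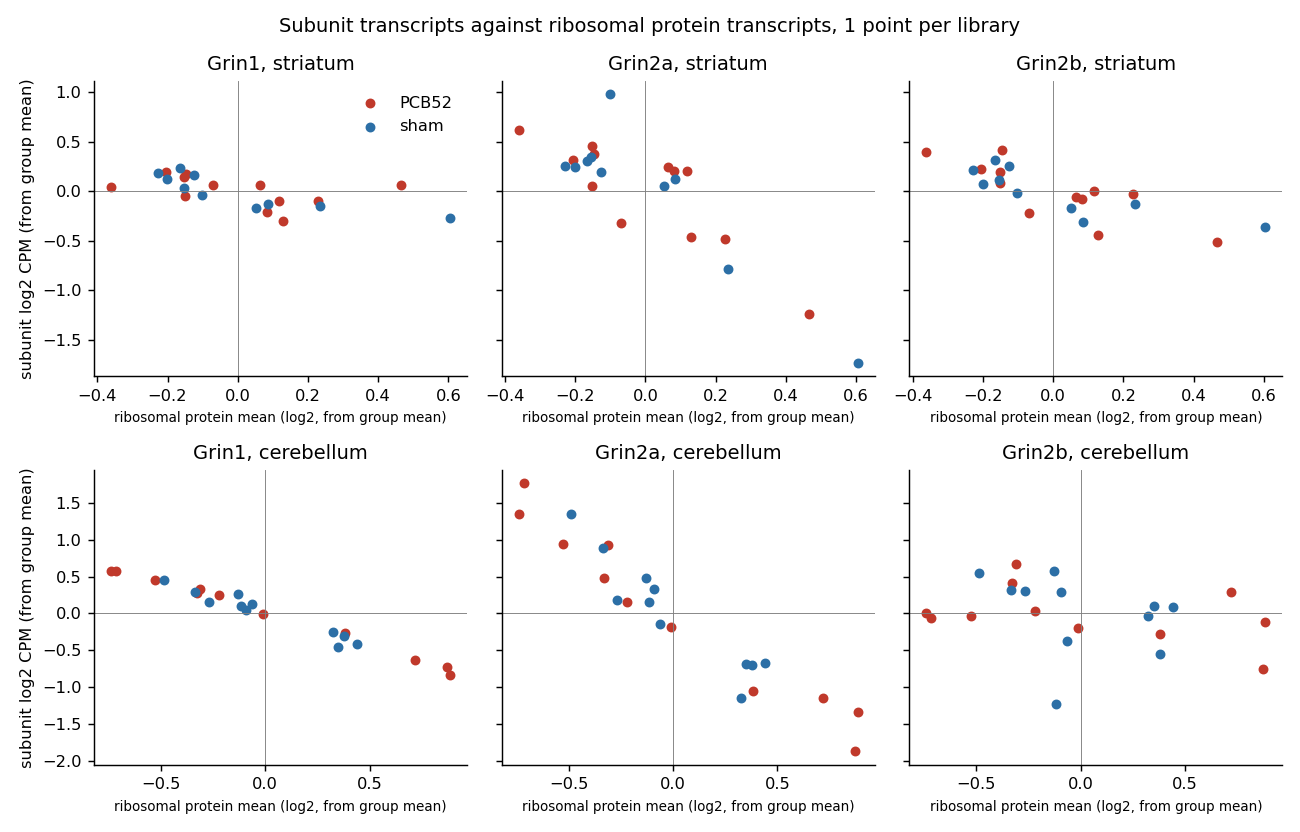
Deviation of Grin1, Grin2a and Grin2b from their group mean (log2 CPM) against the deviation of the mean ribosomal protein transcript level, 22 striatal libraries above and 22 cerebellar libraries below, with PCB52 and sham in different colours. Grin1 and Grin2a fall along a line in cerebellum (r = -0.989 and -0.962), and Grin2b scatters there (r = -0.325).

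The genes whose deviations most resembled each member's, among 10448 striatal and 9978 or 9979 cerebellar genes with a mean of at least 5 CPM, are given with Pearson's r over 22 libraries as a description. For Grin1 they were Sptbn4 (0.926), Speg (0.904) and Celf5 (0.889) in striatum and Adgrl1 (0.994), Cntnap1 (0.993) and Slc12a5 (0.992) in cerebellum. Grin2a was closest to Fat3 (0.967), Akap6 (0.965) and Myo5a (0.963) in striatum and to Slc24a2 (0.987), Magi1 (0.985) and Pgm2l1 (0.984) in cerebellum. Grin2b followed Arhgef7 (0.905), Cdk13 (0.889) and Kalrn (0.878) in striatum, but reached only 0.714 with Prg4, 0.698 with Gnl3 and 0.694 with Man1a1 in cerebellum. For Grin2c the genes were Mmp15 (0.903), Sgsm2 (0.874) and Afap1l2 (0.851), and Abcc8 (0.965), Shank3 (0.965) and Zfyve28 (0.964). Grin2d lay nearest Sulf2 (0.842), Atp13a1 (0.839) and Ptpn23 (0.828), and Crocc (0.962), Arhgef2 (0.949) and Ctif (0.945). Grin3a lay nearest Ppm1h (0.870), Opcml (0.852) and Lyst (0.846), and Snx9 (0.874), Ogdhl (0.869) and Mfsd4a (0.864).

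PCB52 and sham animals did not differ past the threshold in any subunit transcript, in either region or sex. In striatum of males edgeR called 0 of 6 members and 0 of 12142 genes (0%), and 109 genes were under 0.05 before adjustment, none a member. DESeq2 found 1 gene and limma 0. The 6 log2 fold changes lay between -0.13 ± 0.26 for Grin2d and 0.14 ± 0.13 for Grin2c (SE), with a median of 0.07 and 5 above 0, against 50.1% of all genes above 0. Grin1 had 711 ± 77.9 CPM in PCB52 males (SD, n = 6) and 683 ± 89.3 CPM in sham males (SD, n = 4), a log2 fold change of 0.05 ± 0.11. Grin2b had 19.8 ± 2.06 CPM in PCB52 males and 18.3 ± 3.59 CPM in sham males, 0.11 ± 0.18. Every member overlapped between the groups.

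In striatum of females all 6 members had fold changes above 0, with a median log2 value of 0.29, while 49.6% of all genes did and their median was -0.00. None passed: edgeR called 0 of 6 members and 0 of 12142 genes (0%), and 1633 genes were under 0.05 before adjustment, Grin2c and Grin2d among them. DESeq2 found 24 genes, no member among them, and limma 0. Grin2c had 211, 249 and 271 CPM (lowest, median, highest) in PCB52 females against 164, 196 and 223 CPM in sham females. All PCB52 females except female 14 stood above every sham female. The log2 fold change was 0.33 ± 0.11 (SE, edgeR adjusted p = 0.303), and 0.38 without the libraries high in markers of another tissue (edgeR adjusted p = 0.752).

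Grin2d had 12.3, 15.1 and 20.6 CPM in PCB52 females and 6.38, 10.1 and 18.97 CPM in sham females. Sham females 4 and 10 lay within the PCB52 range and the others below it. Its log2 fold change was 0.50 ± 0.24 (edgeR adjusted p = 0.367), and 0.13 without the libraries high in markers of another tissue. Grin1 had 589, 762 and 826 CPM in PCB52 females and 526.1, 654 and 717 CPM in sham females, a log2 fold change of 0.21 ± 0.10 (edgeR adjusted p = 0.372). Grin2b had 14.05, 21.3 and 26.8 CPM in PCB52 females and 12.8, 16.9 and 19.7 CPM in sham females, 0.31 ± 0.16 (edgeR adjusted p = 0.385). The remaining members had 0.26 ± 0.31 for Grin2a and 0.14 ± 0.25 for Grin3a. Sham female 12, which had olfactory bulb markers and the highest striatal ribosomal mean (8.43), held the lowest Grin1, Grin2a, Grin2b, Grin2c and Grin2d of all striatal libraries. Without it the fold changes were 0.29 for Grin2c, 0.38 for Grin2d, 0.16 for Grin1 and 0.24 for Grin2b. With the ribosomal mean as a covariate, 4 of 6 members stayed above 0 (Grin2c 0.28, Grin2d 0.25, Grin1 0.11 and Grin2b 0.06), and Grin2a and Grin3a were at -0.27 and -0.20. Without the libraries high in markers of another tissue 4 of 6 were likewise above 0, and with PCB52 female 22 left out besides, which leaves PCB52 females 16 and 18, Grin2c was at 0.38, Grin1 at 0.28, Grin2a at -0.28 and Grin3a at -0.68.

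Averaged over both sexes in striatum, the members' median log2 fold change was 0.18, led by Grin2c at 0.24 ± 0.09 (SE, edgeR adjusted p = 0.774). edgeR called no gene of 12142 (0%), and 704 were under 0.05 before adjustment. DESeq2 and limma also called none. All 6 members were above 0, beside 49.3% of all genes. With the ribosomal mean as a covariate 4 of 6 members were, and 3 of 6 without the libraries high in markers of another tissue. Effects in females minus those in males were above 0 for all 6 members, beside 49.2% of all genes. Grin2d was at 0.63 ± 0.35 (edgeR adjusted p = 0.914) and the other 5 lay between 0.09 and 0.20. With the ribosomal mean as a covariate 3 of the 6 were below 0 (Grin2a -0.46, Grin2b -0.08 and Grin3a -0.30). For this difference edgeR called none of 12142 genes (0%), with 471 under 0.05 before adjustment, and DESeq2 and limma also called none.

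**Figure D5:**
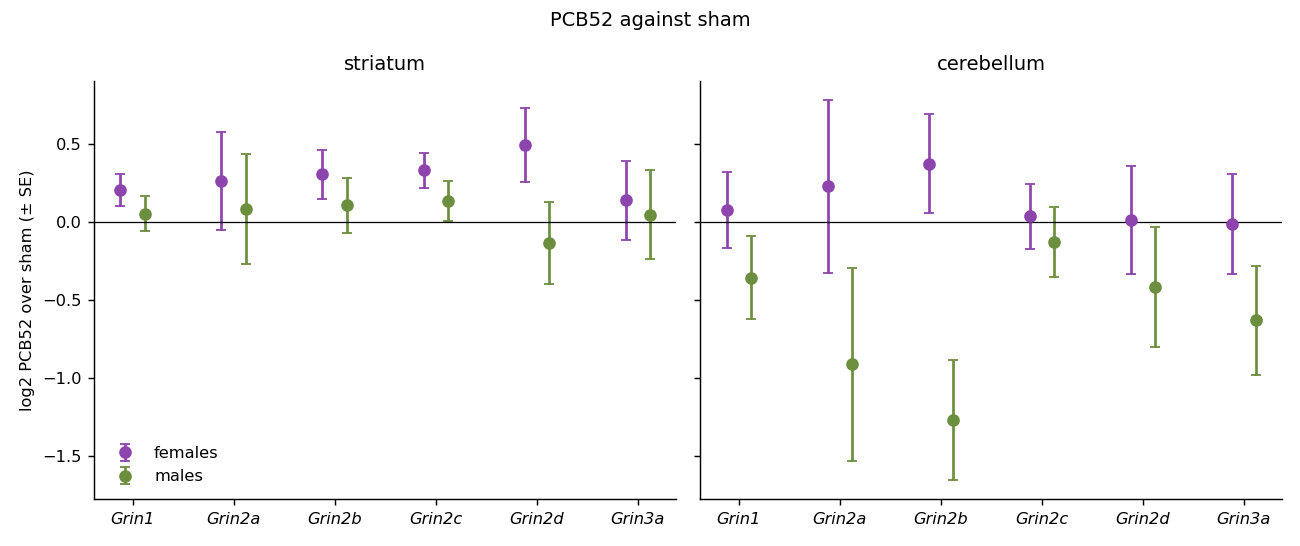
Log2 fold change of each subunit transcript, PCB52 over sham, with its SE, for females (left of each pair) and males in striatum (left panel) and cerebellum (right panel). All 6 striatal female values lie above 0, all 6 cerebellar male values lie below 0 with Grin2b lowest at -1.27, and none passed the threshold.

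In cerebellum of males all 6 fold changes were below 0, with a median log2 value of -0.52, while 50.7% of all genes were above 0 and their median was 0.01. Without the libraries high in markers of another tissue 5 of the 6 were below 0, and with the ribosomal mean as a covariate 2 of the 6 were. Again none passed: edgeR called 0 of 6 members and 0 of 11690 genes (0%), and 1673 genes were under 0.05 before adjustment, Grin2b alone of the members. DESeq2 found 1 gene, not a member, and limma 0. Grin2b stood furthest out. PCB52 males 13, 15, 19, 21 and 23 had 0.509, 0.424, 0.812, 0.580 and 0.492 CPM, from 4, 3, 6, 6 and 3 reads. Sham males 1, 3, 7, 9 and 11 had 1.99, 0.842, 0.945, 1.43 and 1.67 CPM, from 14, 7, 7, 10 and 12 reads. Every PCB52 male was below every sham male, as for 0.462% of genes in this direction and 0.359% in the other. The log2 fold change was -1.27 ± 0.39 (SE, edgeR adjusted p = 0.313). Of the members it was the only one whose groups did not overlap. Over the alternatives that gave a value, its fold change lay between -1.43 and -0.95. The adjusted p over those edgeR, DESeq2 and limma fits was 0.118 to 0.815. Where only the male libraries were fitted, Grin2b fell below the low-count filter and gave no value.

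Markers of other cell types are given beside these Grin2b values, and their part in the result was not tested. Summed granule cell markers ran from 4806 over a median of 5451 to 5994 CPM in PCB52 males and from 5267 over 5735 to 5966 CPM in sham males, and 0 of 8 were at 0 counts in either group. Striatal projection neuron markers ran from 430 over 590 to 627 CPM in PCB52 males and from 424 over 465 to 571 CPM in sham males. Astrocyte and Bergmann glia markers ran from 2119 over 3048 to 3290 CPM in PCB52 males and from 2934 over 3362 to 3598 CPM in sham males. Sham male 1, which had choroid plexus markers, held the highest Grin2b of the males, and without libraries high in markers of another tissue the Grin2b fold change was -1.09 (edgeR adjusted p = 0.618). Without the 4 libraries with transcripts of both sexes, sham males 9 and 11 among them, it was -1.14 (edgeR adjusted p = 0.395), and with the ribosomal mean as a covariate it was -1.07 (edgeR adjusted p = 0.815).

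The other members of male cerebellum overlapped between the groups. Grin2a had 22.5, 3.11, 9.20, 7.45 and 2.46 CPM in PCB52 males 13, 15, 19, 21 and 23, against 36.5, 9.02, 12.97, 9.14 and 16.4 CPM in sham males 1, 3, 7, 9 and 11. Males 15 and 23 were low and male 13 was within the sham range. The log2 fold change was -0.91 ± 0.62 (SE, edgeR adjusted p = 0.340), -1.60 without PCB52 male 13, and 0.00 with the ribosomal mean as a covariate. Grin1 had -0.35 ± 0.27 and 0.10 with the covariate, Grin2c -0.13 ± 0.23 and 0.26, Grin2d -0.41 ± 0.38 and 0.19, and Grin3a -0.63 ± 0.35 and -0.27. Ribosomal means ran from 7.54 to 9.14 in PCB52 males and from 7.20 to 8.13 in sham males; their part in these values was not tested further.

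In cerebellum of females the members' median log2 fold change was 0.06, with 5 of 6 above 0, against 55% of all genes. edgeR called 0 of 6 members and 0 of 11690 genes (0%), and 369 genes were under 0.05 before adjustment, none a member. DESeq2 found 10 genes, no member among them, and limma 0. Grin2b had 0.690, 1.27 and 2.17 CPM (lowest, median, highest) in PCB52 females against 0.264, 1.13 and 1.52 CPM in sham females, a log2 fold change of 0.38 ± 0.32 (SE). The highest value belonged to PCB52 female 24, which also held 182 CPM of Ddn, a dendritic transcript of forebrain; every sham cerebellar library held at most 1.88 CPM of Ddn. Without libraries high in markers of another tissue the Grin2b fold change was 0.09. Grin2a had 3.04, 15.9 and 29.5 CPM in PCB52 females and 5.19, 13.8 and 21.3 CPM in sham females, so the PCB52 females reached beyond the sham range at both ends. Its fold change was 0.23 ± 0.55, and the other 4 members lay between -0.01 and 0.08.

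In cerebellum the effect in females minus that in males was largest for Grin2b at 1.64 ± 0.50 on the log2 scale (SE, edgeR adjusted p = 0.774). This difference was above 0 for all 6 members, with a median of 0.52, beside 49.2% of all genes. Both treatments enter it. Females minus males, 0 of 6 members were above 0 in sham animals (median -0.31) and 5 of 6 in PCB52 animals (median 0.24). The 4 cerebellar libraries with transcripts of both sexes were all sham. Without the libraries high in markers of another tissue, PCB52 females 16, 18 and 24 among them, the difference of effects was 1.18 for Grin2b. That was its lowest value over the alternatives. With the ribosomal mean as a covariate the difference of effects was 1.48 for Grin2b, 0.05 for Grin1, -0.15 for Grin2c and -0.08 for Grin2d. No gene passed in edgeR (0%; 254 under 0.05 before adjustment), 4 passed in DESeq2 and 0 in limma. The mean effect over both sexes was below 0 for all 6 members, with a median of -0.26 and Grin2b at -0.45 ± 0.25 (edgeR adjusted p = 0.331). Of all genes, 50.3% were above 0. With the ribosomal mean as a covariate 4 of the 6 were above 0 (Grin1 0.13, Grin2a 0.13, Grin2c 0.18 and Grin2d 0.15), and 3 of the 6 were without the libraries high in markers of another tissue. No gene passed in edgeR (0%; 1727 under 0.05 before adjustment) or limma, and 23 passed in DESeq2, no member among them.

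The ratio of Grin2a to Grin2b did not separate PCB52 from sham libraries beyond their spread in any region and sex. PCB52 minus sham, it was 0.01 in striatum of males, 0.06 in striatum of females, 0.10 in cerebellum of males and -0.52 in cerebellum of females on the log2 scale (exact permutation tests, two-sided, adjusted p = 0.990 for each). In cerebellum of females it averaged 3.15 ± 1.11 in PCB52 and 3.67 ± 1.12 in sham animals (SD, n = 6 each). There it was 1.62 and 2.14 in PCB52 females 16 and 20 (ribosomal means 8.62 and 8.77) and 4.50 in PCB52 female 14 (7.16). The highest cerebellar ratio, 5.615, was in sham female 8 (7.63). In striatum the lowest, -1.48, was in sham female 12, which had the highest striatal ribosomal mean (8.43). The relation of the ratio to the ribosomal mean was not tested.

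The striatal minus the cerebellar PCB52 effect, averaged over the sexes, was above 0 for all 6 members, beside 49.1% of all genes. It ran from 0.26 for Grin1 to 0.64 ± 0.26 for Grin2b (SE, edgeR adjusted p = 0.268). No gene of 12446 passed in edgeR (0%; 2278 under 0.05 before adjustment, Grin2b alone of the members) or limma, and 3 passed in DESeq2. Without the libraries high in markers of another tissue, Grin2a was at -0.10 and Grin2d at -0.07, and with striatum PCB52 female 22 left out besides, Grin3a was also below 0 at -0.05.

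edgeR called 0 partner genes for PCB52 in any region or sex; before adjustment 0 in striatum of males, 8 in striatum of females, 8 in cerebellum of males and 5 in cerebellum of females were under 0.05, out of 68 partners tested in striatum and 66 in cerebellum. The same held for 0.898%, 13.4%, 14.3% and 3.16% of all genes, in that order. In striatum 42 of 68 partners had fold changes above 0 in males and 31 of 68 in females, with median log2 values of 0.02 and -0.02. In cerebellum 15 of 66 were above 0 in males, with a median of -0.30, and 37 of 66 in females, with a median of 0.03. Of all genes, 50.1% were above 0 in striatum of males, 49.6% in striatum of females, 50.7% in cerebellum of males and 55.0% in cerebellum of females. By role, the male cerebellar medians were -0.35 for 8 scaffolds, -0.44 for 9 transport genes, -0.41 for 13 calcium-dependent effectors, -0.33 for 12 auxiliary and surface partners, -0.22 for 15 kinases and phosphatases and 0.06 for 9 co-agonist genes. These partner values come from fits with all libraries and without the ribosomal covariate. For the members in male cerebellum, that covariate moved the number above 0 from 0 to 4 of 6. Its part in the partner values was not tested.

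Females and males did not differ past the threshold in any member. In striatum edgeR called 0 of 6 members in PCB52 animals, beside 0.0412% of genes (0.0247% higher and 0.0165% lower in females), and 0 of 6 in sham animals, beside 0.0329% (0.0165% in each direction). Before adjustment 569 and 310 genes were under 0.05. DESeq2 and limma also called 0 members. The members nearest a difference were Grin2c in sham striatum and Grin2b in PCB52 cerebellum. Grin2c had 164, 196 and 223 CPM in sham females (lowest, median, highest of 6 libraries). The 4 sham males had 184, 218, 275 and 297 CPM (log2 difference -0.32 ± 0.13 (SE), edgeR adjusted p = 0.999). Grin2b had 0.690, 1.27 and 2.17 CPM in females (lowest, median, highest of 6 libraries). The 5 male values of 0.424 to 0.812 CPM are given above (1.25 ± 0.37, edgeR adjusted p = 0.708). Without the libraries high in markers of another tissue this Grin2b difference was 0.96. Cerebellum gave 0 calls by edgeR in PCB52 and in sham animals (0% each), with 379 and 123 genes under 0.05 before adjustment. DESeq2 called 9 and 0 genes and limma 2 and 0, no member among them. With all libraries in, edgeR thus called no gene of any kind between the sexes, so its 0 member calls in cerebellum say little. Without the 4 cerebellar libraries with transcripts of both sexes, edgeR called 5 of 11850 genes in PCB52 and 4 in sham animals, again no member. The PCB52 and sham groups in these sex differences are the ones that enter the PCB52 comparisons, so the values are not independent of them.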

How the data were processed

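RNA was sequenced from tissue punches. Per the labels' protocols, library preparation selected poly(A) RNA or removed ribosomal RNA, without saying which. Per the submitters' processing notes, FastQC, HISAT2 and the rat build rn6 were used; no source used here names the counter, annotation or strand setting, and antisense or overlapping genes could share reads. The authors deposited whole-number counts per gene and library, 1 table per region, not normalized. Of 47 labelled samples 44 had counts; sham male 5 (both regions) and sham male 7 (striatum) were not analysed here. Groups and animal numbers came from the labels, and animals are the replicates. Of 15319 identifiers 15230 (99.4%) matched a symbol in a RefSeq table of assembly GRCr8, used for names only.

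The members and gene lists were chosen with earlier results of these data known. edgeR 4.0.16 (R 4.3.3) fitted the deposited counts with TMM, the default low-count filter and robust quasi-likelihood: 4 group means per region (12142 striatal and 11690 cerebellar genes) and 8 group means over both (12446 genes). Tests were two-sided with Benjamini-Hochberg adjustment at 0.05; SE is the log2 fold change divided by the root of F. The scripts were tested on simulated data. CPM uses TMM-adjusted library sizes; log2 CPM for correlations and the ribosomal mean has a prior count of 2. Ratio and correlation tests were permutation tests (scipy 1.17.1). All members are named, partner genes by lowest p among those past the threshold in each role and direction (a part of them in the text), and 3 genes most like each member. Markers of another tissue meant summed choroid plexus markers above 1000 CPM, in striatum olfactory bulb markers above 300 CPM or cortical neuron markers above 500 CPM, and in cerebellum Ddn above 10 CPM; both sexes meant Xist and Eif2s3y each above 3 CPM. No 2 libraries of a group were duplicates: over 101 pairs, chi-square over its degrees of freedom was at least 3.58. The animal numbers link both regions of 21 animals, since the same number and tag name an animal in both; 10 of 21 pairs had deviations correlated above 0.1 (-0.45 to 0.566). Alternatives were DESeq2 1.42.0, limma 3.58.1 voom with quality weights, RLE size factors, no low-count filter, only the libraries compared, the animal as a block, leaving out each library, and, chosen after seeing the data, leaving out both kinds of library above, leaving out with the second kind the striatal library with Gabra6 above 10 CPM, and the ribosomal mean as a covariate.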

Additional observations from a re-analysis of the deposited data

Results flagged for a closer look

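Among 48 groups tested for a library far from the others, 1 value was out: Grin2a in cerebellum of sham male 1, at 36.5 CPM against 16.4 CPM in the next sham male (gap over range 0.731, critical value 0.71). Chance puts about 1 in 20 such groups out. That library also had the most choroid plexus markers in cerebellum (2331 CPM) and the highest Grin1 and Grin2c of its region.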

How the results depend on the processing

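The 15 counts of called members kept their value within 1.5 times in all 522 alternative values; the count for PCB52 animals between regions was 5 to 6 on leaving out a library, and 5 without the libraries high in markers of another tissue, with or without striatum PCB52 female 22. Of 3128 alternative values of single members, 11 lost a call, all of Grin2a between regions in PCB52 animals (0.54 without libraries high in markers of another tissue, 0.45 with striatum PCB52 female 22 left out besides, and 0.66 to 0.74 in 9 fits without 1 library); the cause was not tested. No called member changed direction. Of 79 uncalled member values 41 turned sign in at least 1 alternative. With the animal as a replicate block the members called stayed at 5 in sham animals, 6 in PCB52 animals and 0 for the difference of effects, and it changed no call. The ratio of Grin2a to Grin2b in sham animals was -3.67 without libraries holding transcripts of both sexes (exact permutation adjusted p = 0.312), where 5 animals cannot give a p below 0.0625, and -3.66 with no replicate block. With 0.5 CPM added to both genes it was -3.10. Grin2b in cerebellum fell below the low-count filter, and gave no value, where only the libraries of a single sex or a single treatment were fitted. Grin2b rests on 2 to 19 reads per cerebellar library, which limits what can be seen there.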
